A study of Mus musculus with 12 samples.

Results

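The genes described here are 42 genes of the vessel wall of the brain, 30 of endothelial cells, 8 of pericytes and 4 of vascular smooth muscle, among the 24421 gene symbols listed for each library. They were taken by symbol from a fixed list and not by their values, although earlier results of these data were known when the list was drawn up. All 42 had enough counts to be tested, as did 15453 genes in all. The RNA came from the dorsal raphe (DR), a midbrain nucleus whose serotonergic neurons supply much of the forebrain, of 4 control and 8 STAT3 KO mice. STAT3 KO mice were Sert Cre/+; Stat3 fl/fl, so that Cre, made in cells that express the serotonin transporter SERT, removed part of the transcription factor gene Stat3. Controls were littermates with the genotype Sert Cre/+; Stat3 fl/+, and so carried Cre and 1 floxed allele as well. Mice of both groups were of the mixed strain C57BL/6 x 129, of both sexes (2 control and 4 STAT3 KO mice per sex), and 8 to 16 weeks old at the start of the experiments. In the DR the serotonin transporter is best known from serotonergic neurons, and recombination in vessel cells was not measured here.

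Endothelial cells line every brain capillary and, sealed to each other by tight junctions, form the blood-brain barrier, through which glucose, amino acids and hormones pass by dedicated carriers. Pericytes sit on the outer face of the capillary within the basement membrane and depend on PDGF signals from the endothelium. Smooth muscle cells wrap arterioles and carry the contractile proteins that set vessel width. Pericytes and smooth muscle together are called mural cells.

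Each library was made from a whole piece of tissue below the aqueduct, with 24379588 to 29645210 counts on genes, so in the values that follow fewer cells of a type and less RNA per cell cannot be told apart. Levels are CPM, the counts of a gene scaled to the same total of gene counts in every library, where 3 counts correspond to 0.101 to 0.123 CPM, a lower limit set by counting error alone. The targeted gene Stat3 averaged 65.9 ± 1.26 CPM (SD, n = 4) among controls against 66.6 ± 2.90 CPM (SD, n = 8) in knockouts, with a log2 fold change of -0.01 (SE 0.04). The mean CPM, which carry no TMM factors, were slightly higher in knockouts while the fitted fold change was below 0, each by less than its error. The counts cover all exons and every cell type of the piece. By qRT-PCR of the deleted exons, the study reported lower Stat3 in DR tissue of knockouts. It also reported less STAT3 staining in their serotonergic neurons. Mice are named by the number in their library's title. Some libraries had higher levels of marker genes of other tissue than others: the summed CPM of 8 choroid plexus genes was 256 in STAT3 KO 16 and 261 in STAT3 KO 8 against 30.6 to 43.1 in the other mice, and that of 7 genes of forebrain excitatory neurons was 407 in control 4 against 39.7 to 116 in the others. The summed CPM of 6 cerebellar genes was 430 in STAT3 KO 16, 190 in STAT3 KO 10 and 134 in control 3 against 60.1 to 94.3 in the others. STAT3 KO 10, which had the lowest value for many vascular genes, also had the highest summed level of 6 ependymal genes (90.9 CPM).

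The vascular genes were well read, with a median of 684 counts per library and gene. Their defining markers were present in every mouse. Per kilobase of exon, the scale on which genes can be set side by side, Bsg stood first with a mean level of 315 CPM per kb. It encodes basigin, a partner of monocarboxylate carriers that neurons and glia make too. After it came Pltp (52.6 CPM per kb), which encodes a phospholipid transfer protein, Slc2a1 (47.0 CPM per kb), the glucose carrier GLUT1, and Vtn (42.04 CPM per kb), which encodes the matrix protein vitronectin and is a pericyte marker in brain. Cldn5, the main claudin of the barrier, had 27.1 CPM per kb, Rgs5, a regulator of G protein signalling typical of pericytes, 10.4 CPM per kb, Pecam1, an endothelial adhesion molecule, 6.52 CPM per kb, and Acta2, smooth muscle actin, 6.18 CPM per kb. The last was Cnn1, smooth muscle calponin, with 0.137 CPM per kb and a mean of 9.58 counts per library. For Tagln, which encodes the actin-binding protein transgelin, 60.9% of the exonic length is also covered by exons of Pcsk7 and Gm48529 on the other strand, and for Pltp 21.0% is shared with Ctsa on the other strand. Whether counting used strand is not given in the sources used here, so reads of these pairs may be mixed. Ly6a and Ly6c1 belong to a family of similar genes, and Abcb1a has a close copy, Abcb1b.

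**Figure D1:**
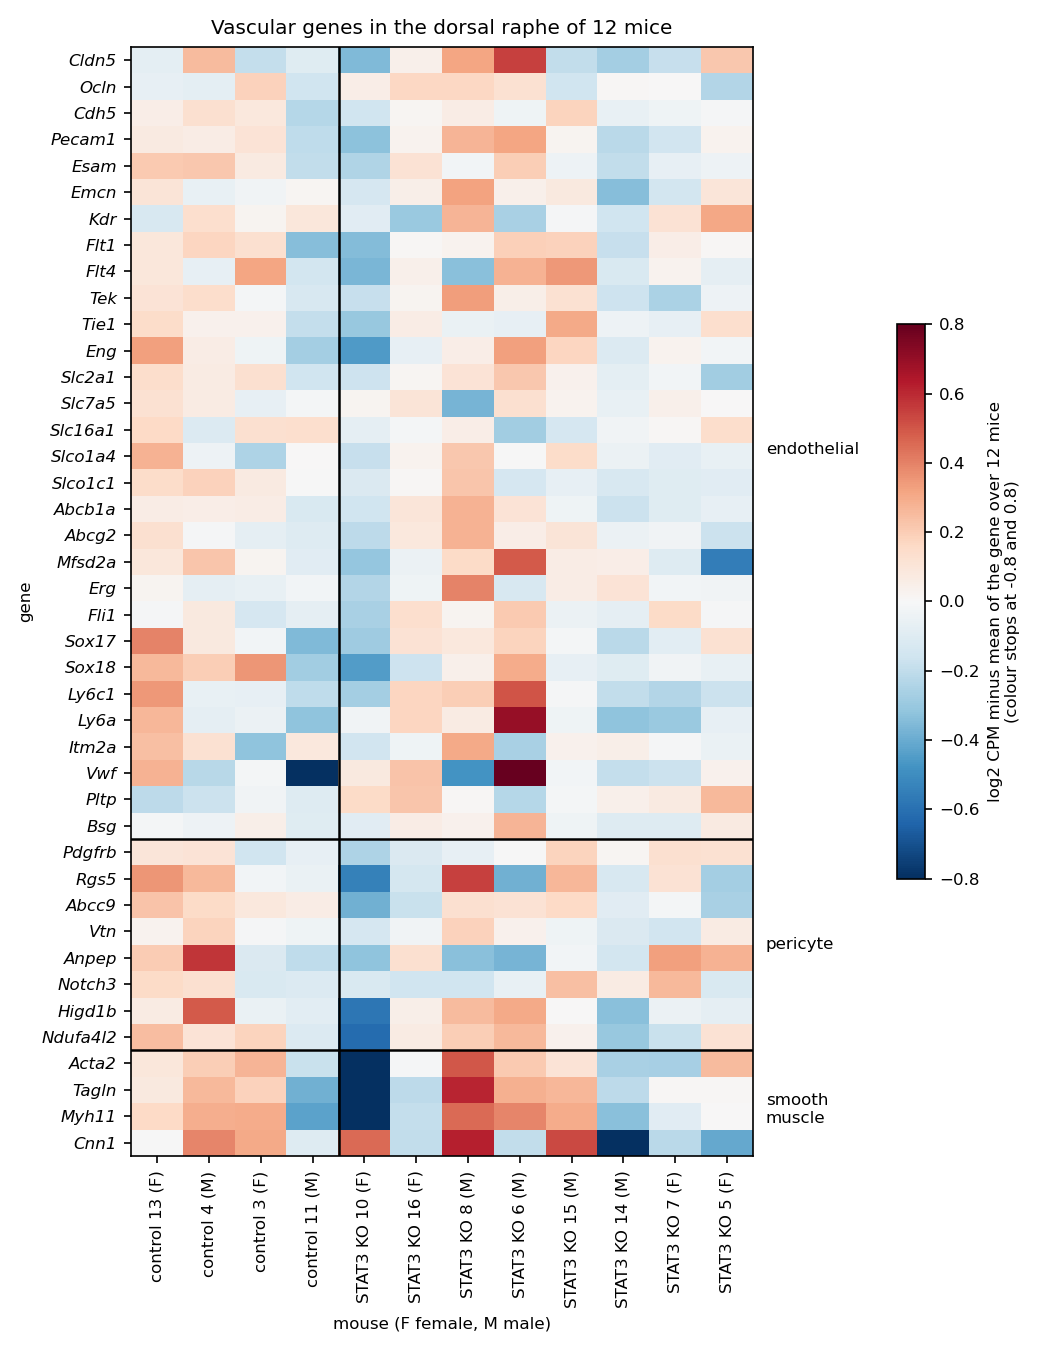
Level of each of the 42 vascular genes (rows) in each of the 12 mice (columns), as log2 CPM minus the mean of that gene over all mice, with red above and blue below the mean; lines separate controls from STAT3 KO mice and endothelial, pericyte and smooth muscle genes. STAT3 KO 10 had the lowest value of the 12 mice for 20 genes (6.95% of all genes tested), STAT3 KO 8 the highest for 13 (18.7%) and STAT3 KO 6 the highest for 12 (10.7%).

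Erg and Fli1 encode ETS family factors of the endothelium, which bind DNA around the letters GGAA. Of the 42 genes, 27 matched a promoter in the RefSeq set for GRCm38.p6, taken as 250 bases before to 50 bases after the start of transcription. The letters AGGAAGT were found on either strand in 5 of 20 endothelial promoters, in 0 of 7 mural promoters and in 10.7% of the promoters of all genes. Of the overlapping ETS-type strings searched, CAGGAAG was found in 4 of 20 endothelial promoters and in 14.8% of all, and CCGGAAGT in 0 of 20 and in 4.31% of all. The CArG box, the site of serum response factor in smooth muscle genes, was found in 0 of 7 mural promoters and in 1.81% of all. Matches of letters are a description and not binding sites. The stretches of 4 of these genes are shown to give the letters with their strand and their distance from the start. They are written 5′ to 3′ on the strand of the gene, with the match, or its reverse complement ACTTCCT, in capitals.
Eng (chr2:32646531-32646560, plus strand, match from 53 bases before the start): aagcctgtggcACTTCCTctactcgcctgg
Flt1 (chr5:147726046-147726075, minus strand, match from 53 bases before the start): ggtgccggggtAGGAAGTgggctggggaaa
Slco1c1 (chr6:141524214-141524243, plus strand, match from 129 bases before the start): ctttgttactaACTTCCTtccctgccctgg
Ly6c1 (chr15:75048771-75048800, minus strand, match from 126 bases before the start): ccttgtctgagAGGAAGTaaggactggtgt

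The first comparison asked whether vascular genes differed between STAT3 KO mice and controls. No vascular gene passed the test (0 of 42, smallest adjusted p = 0.615, edgeR's quasi-likelihood test with Benjamini-Hochberg adjustment over all genes), and neither did any other gene (0.0% of 15453). DESeq2 called 6 genes in all and edgeR's likelihood ratio test 3, and both called 0 of the 42. At an unadjusted p below 0.05, 3 of the 42 vascular genes were found against 7.66% of all genes tested, a share near that background. Controls and knockouts were fully separated in their values for 0 of the 42 genes, against 0.492% of all genes. The 42 log2 fold changes ran from -0.23 for Sox18 to 0.43 for Vwf, with a median of -0.05 beside -0.0011 for all genes tested. The median half-width of their 95% confidence intervals was 0.21, so changes of that size in a single gene could be missed. Estimates were below 0 for 33 of the 42 genes, against 50.6% of all genes. The members move together from mouse to mouse, as described further on, so this count does not stand for 42 separate observations. It ran from 23 to 38 over 22 alternatives of method or mice, and was 25 without control 13. The 23 came without control 3 and STAT3 KO 10 and 16, the mice with cerebellar genes.

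**Figure D2:**
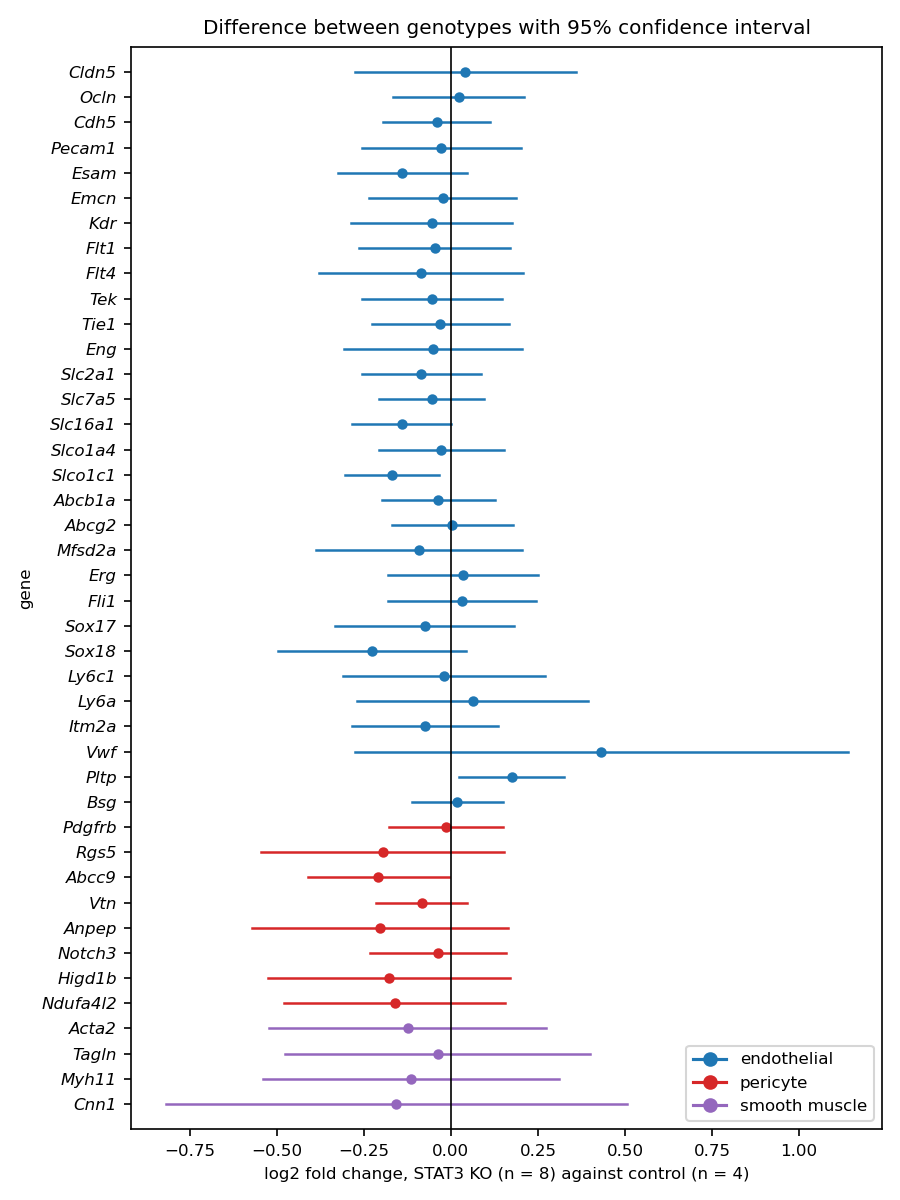
Log2 fold change of each vascular gene in STAT3 KO mice (n = 8) against controls (n = 4), from edgeR's quasi-likelihood fit; points are estimates, bars are 95% confidence intervals and colours mark endothelial, pericyte and smooth muscle genes. The bars of Slco1c1, Pltp and Abcc9 do not reach 0, and 0 of the 42 genes passed the test after adjustment over all genes.

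Among the junction and adhesion genes of the endothelium, 4 of 6 estimates were below 0, with a median log2 fold change of -0.03. Cldn5 was at 35.7, 45.0, 33.0 and 35.2 CPM in control 13, 4, 3 and 11, and from 29.49 over a median of 36.0 to 55.2 CPM in STAT3 KO mice. The control range lay inside the STAT3 KO range, and the log2 fold change was 0.04 (SE 0.15, adjusted p = 0.979, 95% interval -0.28 to 0.36). Pecam1 was at 28.1, 27.9, 28.8 and 23.2 CPM in the same controls and at 21.3 to 33.3 CPM (median 27.2) in knockouts. Its log2 fold change was -0.03 (SE 0.11, adjusted p = 0.983). Cdh5, the adhesion molecule VE-cadherin, was one of the steadiest vascular genes, averaging 17.996 ± 1.89 CPM (SD, n = 4) among controls against 17.8 ± 1.23 CPM (SD, n = 8) in knockouts.

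All 6 receptor genes had estimates below 0, with a median log2 fold change of -0.05, and 0 passed. These were Kdr, Flt1 and Flt4, which encode receptors of vascular endothelial growth factors, Tek and Tie1 of the angiopoietin system, and Eng, a co-receptor of the TGF-beta family. The 4 transcription factor genes gave 2 estimates on either side of 0. Sox18, an endothelial SOX factor gene, was at 9.27, 8.87, 9.86 and 6.37 CPM in control 13, 4, 3 and 11 and at 5.66 to 9.50 CPM (median 7.41) in STAT3 KO mice. Of the 8 STAT3 KO mice, 7 lay below the control mean, and the log2 fold change was -0.23 (SE 0.13, adjusted p = 0.723), with -0.34 without control 11 and -0.15 without control 3. Over 22 alternatives this fold change ran from -0.34 to -0.07.

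Of the 8 carrier genes of the barrier, 7 had estimates below 0, with a median log2 fold change of -0.07. Slco1c1, which encodes a carrier of thyroid hormone, was at 64.9, 66.5, 61.5 and 58.4 CPM in control 13, 4, 3 and 11. In STAT3 KO mice it was at 53.3 to 68.3 CPM, with a median of 54.8 CPM. Of these 8 mice 7 lay below the control mean, and the highest, STAT3 KO 8, lay above every control. The log2 fold change was -0.17 (SE 0.06, 95% interval -0.30 to -0.04), with an adjusted p of 0.615 and an exact permutation p of 0.0566. On CPM scaled with TMM factors, which correct for composition, that exact permutation p was 0.0323. Slc2a1 was at 168, 159, 167 and 136 CPM in the controls and at 126 to 177 CPM (median 152) in STAT3 KO mice. The ranges overlapped almost fully, with a log2 fold change of -0.09 (SE 0.08, adjusted p = 0.868). This was -0.15 without control 11 and -0.05 without STAT3 KO 5, control 3 or control 13, and ran from -0.15 to -0.03 over 22 alternatives. Mfsd2a, which encodes a lipid carrier that keeps vesicle transport across the endothelium low, had a log2 fold change of -0.09 (SE 0.14, adjusted p = 0.934), with -0.18 without STAT3 KO 6, -0.05 without STAT3 KO 10, -0.03 without control 4 and -0.02 without STAT3 KO 5.

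Among the 6 surface and secreted products 4 estimates were above 0. Pltp was at 107, 109, 121 and 115 CPM in control 13, 4, 3 and 11 and at 105 to 147 CPM (median 128) in STAT3 KO mice. STAT3 KO 6 was below every control, while the other 7 were above every control. The log2 fold change was 0.17 (SE 0.07, 95% interval 0.02 to 0.33), with an adjusted p of 0.615. The exact permutation p was 0.0465, and 0.0646 with TMM factors. Vwf, which encodes von Willebrand factor, a clotting protein stored in endothelial granules, had the largest estimate, a log2 fold change of 0.43 (SE 0.33, adjusted p = 0.831). This was 0.10 without STAT3 KO 6 and 0.23 without control 11, and ran from 0.10 to 0.62 over 22 alternatives. Bsg averaged 520 ± 21.5 CPM (SD, n = 4) among controls against 535 ± 49.1 CPM (SD, n = 8) in knockouts.

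All 12 mural genes had estimates below 0, and 0 of 12 passed the test. The median log2 fold change was -0.17 over the 8 pericyte genes and -0.12 over the 4 smooth muscle genes. With 1 mouse left out, the pericyte median ran from -0.23 (without control 11) to -0.03 (without control 4) and the smooth muscle median from -0.22 (without control 11) to -0.03 (without STAT3 KO 10). Without control 3 and STAT3 KO 10 and 16, the smooth muscle median was 0.07 and the pericyte median -0.11, with 9 of 12 mural estimates below 0. In the same fit, estimates were above 0 for 6 of 6 ependymal genes (median 0.77, 3 with an unadjusted p below 0.05), 7 of 7 choroid plexus genes (median 0.44, 2 below 0.05) and 6 of 6 cerebellar genes (median 0.80, 2 below 0.05). They were below 0 for 7 of 7 forebrain genes (median -1.13, 3 below 0.05) and 7 of 7 oligodendrocyte genes (median -0.10, 1 below 0.05), and 0 of these genes passed. Their part in the vascular estimates was not tested. Pdgfrb, the PDGF receptor on which pericytes depend, was at 29.4, 29.6, 24.5 and 26.2 CPM in control 13, 4, 3 and 11 and at 23.1 to 31.0 CPM (median 27.6) in STAT3 KO mice, and its log2 fold change was -0.01 (SE 0.08, adjusted p = 0.992). Rgs5 was at 59.4, 55.6, 45.7 and 44.8 CPM in the controls and ran from 31.9 to 67.9 CPM (median 42.3) in STAT3 KO mice. Of these, 6 lay below the control mean, with a log2 fold change of -0.20 (SE 0.16, adjusted p = 0.842, 95% interval -0.54 to 0.15). It was -0.12 without control 13 and -0.30 without STAT3 KO 8, and ran from -0.30 to -0.08 over 22 alternatives. Abcc9, which encodes the regulatory subunit SUR2 of the potassium channel of mural cells, was at 20.6, 19.6, 18.7 and 18.3 CPM in the controls and at 13.5 to 19.7 CPM (median 17.0) in STAT3 KO mice. Here 7 of 8 STAT3 KO mice were below the control mean, with a log2 fold change of -0.21 (SE 0.09, adjusted p = 0.646) and an exact permutation p of 0.0949. Vtn, by contrast, varied little and averaged 75.4 ± 5.14 CPM (SD, n = 4) among controls against 72.3 ± 5.78 CPM (SD, n = 8) in knockouts.

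In smooth muscle, Acta2 was at 13.04, 14.04, 14.76 and 10.83 CPM in control 13, 4, 3 and 11 and at 6.42 to 17.3 CPM (median 12.7) in STAT3 KO mice. The STAT3 KO mice spread to both sides of the controls. The log2 fold change was -0.12 (SE 0.19, adjusted p = 0.931), with -0.03 without STAT3 KO 10, -0.06 without control 3, -0.20 without control 11 and -0.21 without STAT3 KO 8. Over 22 alternatives the Acta2 fold change ran from -0.24 to 0.05. Tagln was at 7.10, 8.04, 7.65 and 5.15 CPM in controls and at 3.59 to 10.3 CPM (median 6.76) in STAT3 KO mice, with a log2 fold change of -0.04 (SE 0.21, adjusted p = 0.992). Myh11, the smooth muscle myosin heavy chain gene, averaged 16.9 ± 3.58 CPM (SD, n = 4) among controls against 15.8 ± 4.37 CPM (SD, n = 8) in knockouts.

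The endothelial and mural genes were then set against each other within each mouse, by the mean over genes of log2 CPM after the gene's own mean over the 12 mice was subtracted. The endothelial minus mural difference was between -0.21 and -0.02 in the 4 controls and between -0.13 and 0.24 in the 8 STAT3 KO mice. The ranges overlapped, and the group means differed by 0.11 on the log2 scale, against an SD of 0.13 over all mice. Without control 4 the difference between groups was 0.07. The summed level of 6 ependymal genes, whose cells line the aqueduct next to the DR, was 22.8 to 68.3 CPM in controls and 34.4 to 90.9 CPM in STAT3 KO mice. Over the 12 mice its mean had r = -0.82 with the mean of the pericyte genes, -0.61 with that of the endothelial genes and -0.71 with that of the smooth muscle genes. The mean of 6 oligodendrocyte precursor genes had r = -0.74 with the endothelial mean and -0.65 with both the pericyte and the smooth muscle mean. The pericyte mean also had r = 0.64 with the mean of neuronal genes, 0.50 with that of forebrain genes and -0.56 with that of cerebellar genes. Without the 2 mice farthest from the median of the pericyte mean these were 0.07, 0.15 and -0.34, and the r with ependymal genes was -0.81. The part of these cells in the differences was not tested.

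Sex was compared next, with 6 females and 6 males. No vascular gene passed the test (0 of 42) against 0.0841% of all genes (13 genes), and DESeq2 called 0 of 42 as well. At an unadjusted p below 0.05, 3 vascular genes were found against 7.2% of all genes. Estimates were above 0, that is higher in males, for 35 of 42 genes against 49.6% of all genes, with a median log2 difference of 0.06. Over 14 alternatives of method or mice this count ran from 27 to 37. It was 28 without STAT3 KO 6 or STAT3 KO 10, and 27 without control 3 and STAT3 KO 10 and 16. Markers of other tissue were given by the same fit. Estimates were lower in males for 6 of 6 cerebellar genes (median -2.38, all with an unadjusted p below 0.05), 6 of 6 ependymal genes (median -0.22) and 10 of 10 genes of perivascular fibroblasts or meninges (median -0.26), and higher in males for 6 of 7 forebrain genes (median 0.76), 5 of 6 neuronal genes (median 0.04) and 5 of 6 serotonergic genes (median 0.15), with 0 called in each list. The mice with cerebellar genes were all females, and the part of neighbouring tissue in the sex estimates was not tested. Mfsd2a was at 21.0 to 32.8 CPM (median 29.2) in females and at 28.9 to 43.3 CPM (median 33.1) in males, a log2 difference of 0.31 (SE 0.11, adjusted p = 0.639). Abcc9 was at 13.5 to 20.6 CPM (median 16.5) in females and at 16.5 to 19.7 CPM (median 19.2) in males, a log2 difference of 0.18 (SE 0.08, adjusted p = 0.677). Pltp went the other way, with 107 to 147 CPM (median 133) in females and 105 to 127 CPM (median 118) in males, a log2 difference of -0.15 (SE 0.06, adjusted p = 0.650).

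The difference between genotypes was also compared between the sexes, as the change in males minus the change in females. No vascular gene passed this interaction test (0 of 42, smallest adjusted p = 0.907), nor any other gene with edgeR, while DESeq2 called 2 genes that were not among the 42. At an unadjusted p below 0.05 there were 5 vascular genes, all above 0, against 5.49% of all genes. The estimate was above 0 for 35 of 42 vascular genes, against 50.0% of all genes. With 1 mouse left out, the number with an unadjusted p below 0.05 ran from 1 (without control 11) to 12 (without control 4), and the number above 0 from 28 (without control 11) to 37 (without control 4 or control 3). In the same test 7 of 7 genes of forebrain excitatory neurons were below 0, all with an unadjusted p below 0.05 (median -2.71), and 6 of 6 ependymal (median -0.89), 6 of 6 cerebellar (median -0.94) and 6 of 6 serotonergic genes (median -0.25) were below 0 as well, while 7 of 7 oligodendrocyte genes were above 0 (median 0.22), with 0 called. Their part in the vascular estimates was not tested. Slc2a1 had mean levels of 167 and 148 CPM in control females and males, and of 141 and 160 CPM in STAT3 KO females and males, an interaction of 0.37 on the log2 scale (SE 0.13, adjusted p = 0.907). Sox18 had means of 9.57 and 7.62 CPM in control females and males and of 6.89 and 8.03 CPM in STAT3 KO females and males, an interaction of 0.56 (SE 0.22, adjusted p = 0.907). For Abcc9 these means were 19.6, 19.0, 15.3 and 18.6 CPM, an interaction of 0.34 (SE 0.14, adjusted p = 0.907). Each control value rests on 2 mice, and the control males were control 11, which had the lowest endothelial mean of the controls, and control 4, the mouse with forebrain genes.

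The spread of the vascular genes between mice was described by the SD of log2 CPM. The SD of log2 CPM over the 12 mice was larger than that of counting noise for 40 of the 42 genes, with a median of 0.19 against 0.06 for counting noise. This held for 94.1% of all genes tested, a share near that of the vascular genes. It was smallest for Bsg and Vtn (0.11 each) and for Cdh5 (0.11). It was largest for Vwf (0.61), Cnn1 (0.40) and Myh11 (0.39). The highest Vwf level was 6.22 times the lowest, and for Tagln, Acta2 and Myh11 this factor was 2.86, 2.69 and 2.46. For Cnn1 the SD was 0.40 beside a counting noise of 0.47. Counting noise was computed without the prior count of 2 that lowers the SD at low counts, so for such genes the scales differ. The spread of Cnn1 could not be told from counting error at this depth.

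This variation was shared between vascular genes. Over the 861 pairs of vascular genes the median Pearson r of log2 CPM was 0.39, and 35.7% of pairs had an r above 0.5, beside a median of 0.01 and 7.99% of pairs for all pairs of genes tested. Within the endothelial genes the median r was 0.36, within the pericyte genes 0.45 and within the smooth muscle genes 0.61. Between groups it was 0.35 for endothelial with pericyte genes, 0.48 for endothelial with smooth muscle genes and 0.48 for pericyte with smooth muscle genes. The medians across cell types were thus near or above that within the endothelium. Without STAT3 KO 10 the median r was 0.29 over all pairs, 0.26 within the pericyte genes and 0.21 for endothelial with pericyte genes, so the last 2 rested to a large part on that mouse. In the 8 STAT3 KO mice alone the median over all 861 pairs was 0.40, and after removal of the means of genotype and sex it was 0.39. The genes of a mouse share a library and a piece of tissue.

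**Figure D3:**
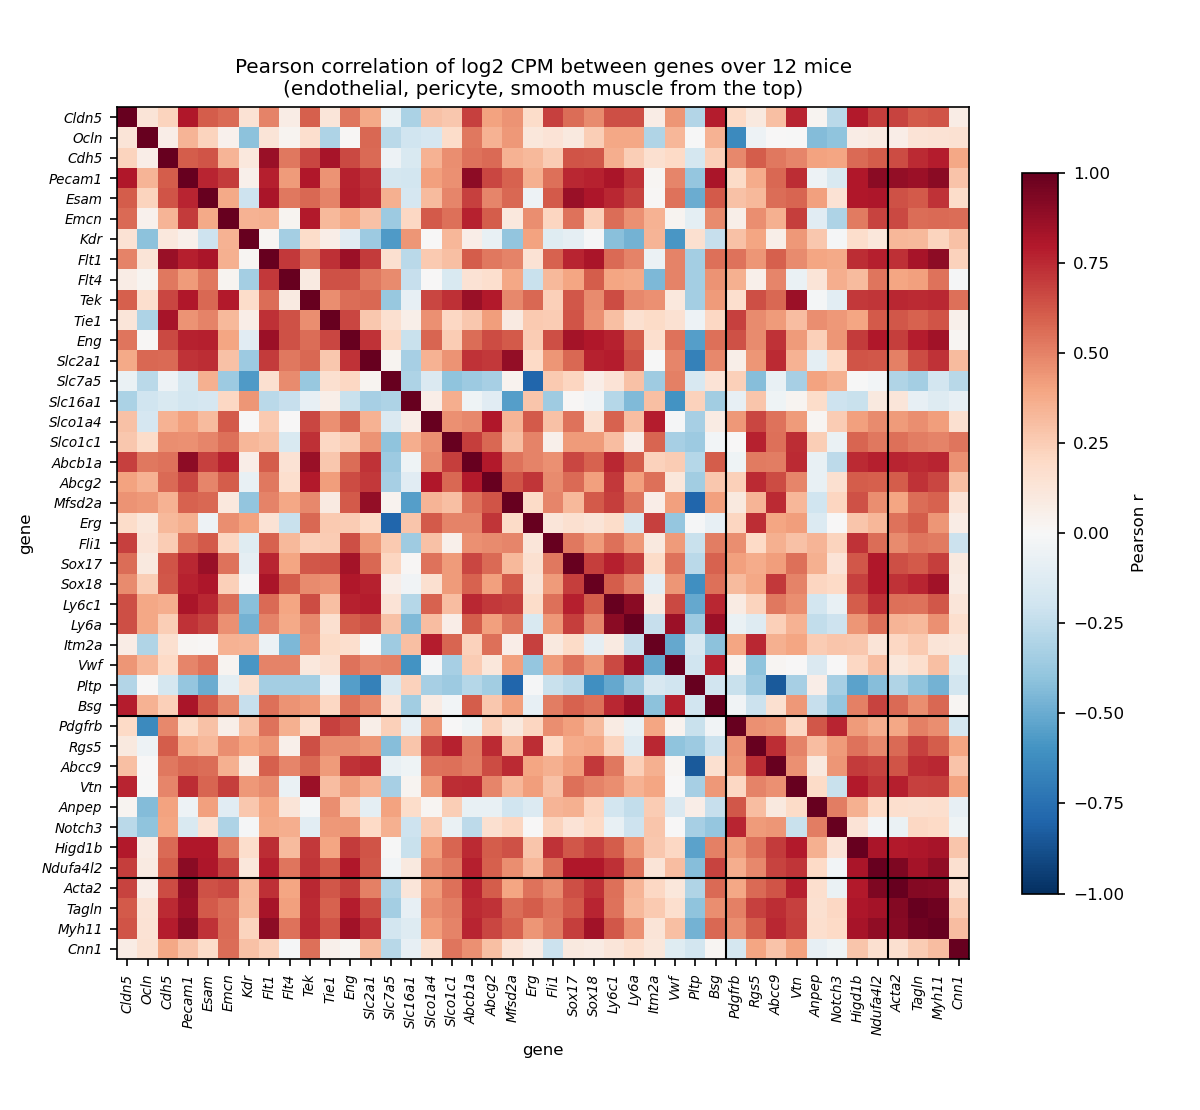
Pearson correlation of log2 CPM over 12 mice for every pair of the 42 vascular genes, with endothelial, pericyte and smooth muscle genes in order from the top and separated by lines; red is positive and blue negative. Most of the panel is red (698 of 861 pairs above 0), and the blue bands are Pltp, Slc16a1, Slc7a5 and Kdr.

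Of 11 pairs of genes tested, 5 had an adjusted permutation p below 0.05 over the 11 pairs, each over 12 mice. The count was 3 without STAT3 KO 7, 8, 10, 14 or 16 and 7 without STAT3 KO 5, and 4 with TMM factors. Acta2 with Tagln, Acta2 with Myh11 and Cldn5 with Pecam1 passed with each mouse left out in turn. Cldn5 with Acta2 was lost without control 4 or STAT3 KO 7, 8, 10, 14 or 16, and Cldn5 with Ly6c1 was lost with any mouse left out other than control 4, control 13 or STAT3 KO 5. Acta2 and Tagln had Pearson r = 0.92 (adjusted permutation p = 0.00044) and Spearman rho = 0.81 (0.0133). Acta2 and Myh11 had r = 0.91 (adjusted permutation p = 0.00044) and rho = 0.83 (0.0133). Without STAT3 KO 8 and 10, the mice farthest from the median of Acta2, r was 0.71 and 0.80. Cldn5 and Pecam1 had r = 0.80 (adjusted permutation p = 0.00528) and rho = 0.76 (0.0191), and r = 0.60 without STAT3 KO 6 and 8. Across cell types, Cldn5 and Acta2 had r = 0.67 (adjusted permutation p = 0.0373) and rho = 0.64 (0.0645), and r = 0.66 without STAT3 KO 6 and 8. Cldn5 and Ly6c1, an endothelial surface antigen, had r = 0.65 (adjusted permutation p = 0.0498) and rho = 0.67 (0.0563). This last relation rested on STAT3 KO 6 and 8, without which r was 0.27.

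The other 6 pairs did not pass. Kdr and Flt1, the genes of both main receptors of VEGF-A, had r = 0.02 and rho = 0.01 (adjusted permutation p = 0.951 and 0.991). Slc2a1 and Bsg had r = 0.48 and rho = 0.42 (adjusted permutation p = 0.151 and 0.303), and the pericyte pair Pdgfrb and Rgs5 had r = 0.45 and rho = 0.41 (0.167 and 0.303). Rgs5 and Vtn had r = 0.50 and rho = 0.28 (adjusted permutation p = 0.151 and 0.462). Between cell types, Cldn5 and Rgs5 had r = 0.10 and rho = 0.14 (adjusted permutation p = 0.828 and 0.735), and Rgs5 and Acta2 had r = 0.57 and rho = 0.32 (0.094 and 0.425). Within the 8 STAT3 KO mice the same 5 pairs passed, with r of 0.92 for Acta2 with Tagln (adjusted permutation p = 0.00873), 0.92 for Acta2 with Myh11 (0.00873), 0.92 for Cldn5 with Pecam1 (0.00737), 0.82 for Cldn5 with Ly6c1 (0.0313) and 0.77 for Cldn5 with Acta2 (0.0395). Within the 6 females and within the 6 males no pair passed, with smallest adjusted permutation p values of 0.218 and 0.0507 for Pearson's r and of 0.187 and 0.0743 for Spearman's rho. Acta2 had r = 0.91 with Tagln in females and 0.96 in males, and r = 0.93 and 0.92 with Myh11.

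Averaged by group, the vessel genes gave 1 profile per mouse. The mean of the endothelial genes had r = 0.67 with that of the pericyte genes and 0.80 with that of the smooth muscle genes over the 12 mice, and pericyte and smooth muscle means had r = 0.78. Without the mice farthest from the median of the first mean of each pair, these were 0.41, 0.65 and 0.65, and in the 8 STAT3 KO mice alone 0.70, 0.84 and 0.85. The endothelial mean ran from -0.19 in STAT3 KO 10 to 0.18 in STAT3 KO 6. The pericyte mean was lowest in STAT3 KO 10 (-0.36) and highest in control 4 (0.25). The smooth muscle mean was lowest in STAT3 KO 10 (-0.57) and STAT3 KO 14 (-0.42) and highest in STAT3 KO 8 (0.52). The summed level of the 4 smooth muscle genes was thus 19.2 CPM in STAT3 KO 10 and 49.5 CPM in STAT3 KO 8, that of the 8 pericyte genes 171 and 234 CPM, and that of the 30 endothelial genes 1532 and 1764 CPM.

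**Figure D4:**
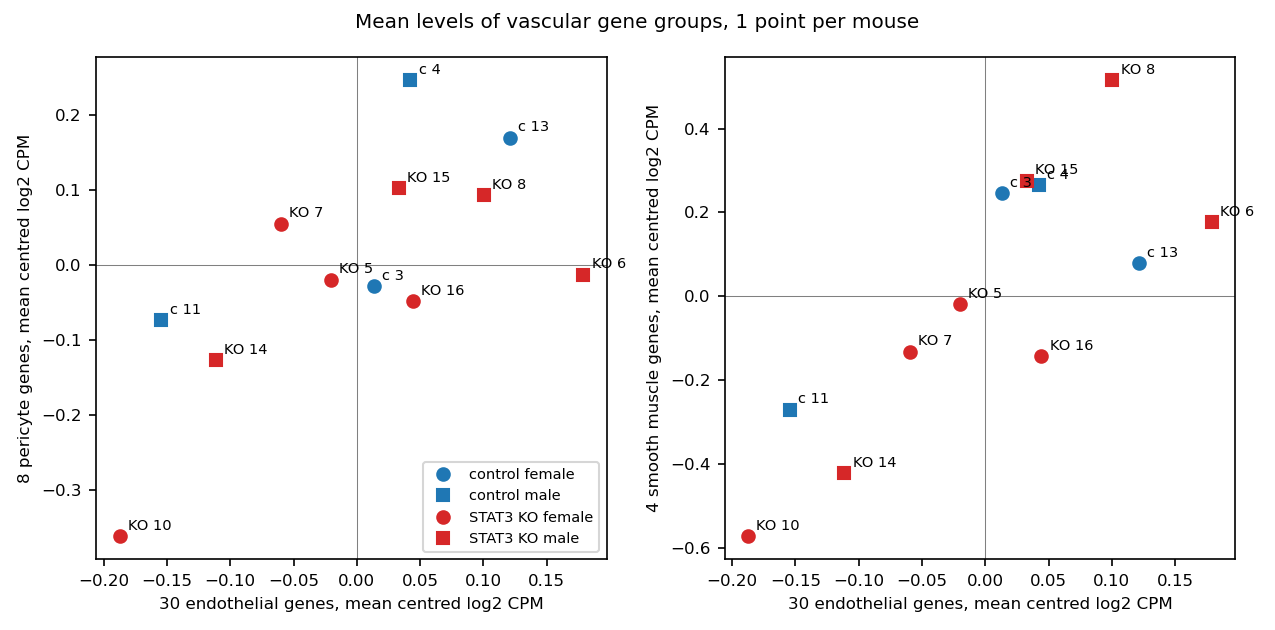
Mean centred log2 CPM of the 30 endothelial genes (horizontal) against that of the 8 pericyte genes (left) and of the 4 smooth muscle genes (right), with 1 point per mouse, circles for females, squares for males, blue for controls (c) and red for STAT3 KO mice (KO). STAT3 KO 10 is lowest on all axes, and STAT3 KO 6 is highest for endothelial genes but near 0 for pericyte genes.

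Some endothelial genes stood outside the common profile. Against the mean of the other 29 endothelial genes, Pecam1 had r = 0.93, Ly6c1 0.89, Eng 0.88, Sox17 0.87, Esam 0.86 and Flt1 0.83, and Slco1c1 had 0.39. Itm2a, Slc7a5, Kdr and Slc16a1 had r = 0.05, 0.02, -0.20 and -0.28. Slc7a5 encodes the amino acid carrier LAT1 and Slc16a1 the monocarboxylate carrier MCT1, and other brain cells make both as well. Pltp ran against the group, with r = -0.49, and its r was below 0 with 38 of the other 41 vascular genes, lowest with Abcc9 (-0.84), Mfsd2a (-0.79) and Slc2a1 (-0.67).

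Among the genes outside the 42, the 5 most like the endothelial mean over 12 mice were Acvrl1 (r = 0.92), the endothelial BMP receptor gene ALK1, then Tcea2 (0.92), Fbxo44 (0.91), Lsr (0.91), a component of tricellular junctions, and Map3k7cl (0.90). Nearest to the pericyte mean were D930048N14Rik (r = 0.89), Bdkrb2 (0.88), a bradykinin receptor gene, Rassf3 (0.86), 2700046A07Rik (0.85) and Olfr558 (0.84). Nearest to the smooth muscle mean were Cdk5 (r = 0.92), Filip1l (0.91), Myl9 (0.89), a smooth muscle myosin light chain gene, Map3k7cl (0.88) and Des (0.88), which encodes the muscle filament desmin. With 15411 genes searched over 12 mice, high values of r are common, and these genes are named as a description. Lists of further vessel genes were compared in the same way. The median r with the endothelial mean was 0.55 for 24 other endothelial, 0.34 for 19 other mural, 0.49 for 8 arterial and 0.47 for 6 venous or activated genes, but 0.11 for 25 genes of junctions and vesicles and -0.01 for 43 genes of vascular signalling, beside 0.01 for all genes tested that are not among the 42, 0.13 for 7 microglial genes, 0.35 for 6 neuronal genes and -0.60 for 6 ependymal genes. With the pericyte mean the median r was 0.45 for 7 forebrain, 0.36 for 19 other mural and 0.25 for 24 other endothelial genes. It was 0.25 for 6 neuronal, -0.50 for 6 cerebellar and -0.80 for 6 ependymal genes, beside -0.03 for all genes tested outside the 42.

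The wider pathways of the vessel wall did not pass the test of genotype either. Of 43 genes of vascular signalling, 25 of junctions and vesicles, 24 other endothelial, 19 other mural, 8 arterial and 6 venous or activated endothelial genes, 0 passed, and at an unadjusted p below 0.05 there were 3, 2, 3, 1, 0 and 0 genes, a share near the 7.66% of all genes. In signalling, Tgfbr2, a TGF-beta receptor gene, averaged 26.8 ± 1.55 CPM (SD, n = 4) among controls against 30.5 ± 1.92 CPM (SD, n = 8) in knockouts. Its log2 fold change was 0.17 (SE 0.06, adjusted p = 0.615). The Notch targets Hey2 and Hey1 had log2 fold changes of 0.26 (SE 0.11, adjusted p = 0.633) and -0.11 (SE 0.05, adjusted p = 0.646). The tight junction adaptors Cgn and Cgnl1 went opposite ways, with log2 fold changes of 0.20 (SE 0.08, adjusted p = 0.615) and -0.20 (SE 0.07, adjusted p = 0.615). Of the other endothelial genes, Mecom had a log2 fold change of 0.27, Tal1 of 0.14 and Tm4sf1 of 0.31, with adjusted p values of 0.615, 0.633 and 0.638. Tbx18, a mural transcription factor gene, had a log2 fold change of -0.36 (SE 0.15, adjusted p = 0.630).

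Several mice set the extremes of endothelial genes. STAT3 KO 10 was lowest for 12 of the 30, against 6.95% of all genes tested, and STAT3 KO 8 highest for 7, against 18.7%. STAT3 KO 6 had the highest level of the 12 mice for 11 of 30 endothelial genes and for 1 of 12 mural genes, against 10.7% of all genes tested. Vwf was at 89.5 CPM in this mouse, at 36.7 CPM in control 13 and at 14.4 to 35.4 CPM in the other 10. Ly6a, the surface antigen Sca-1, was at 51.7 CPM in STAT3 KO 6, at 38.3 CPM in control 13 and at 25.5 to 35.9 CPM elsewhere. Cldn5 (55.2 CPM), Mfsd2a (43.3 CPM), Ly6c1 (46.0 CPM) and Bsg (637 CPM) were highest there too, while Slc16a1 (55.2 CPM), Slco1c1 (53.3 CPM) and Pltp (105 CPM) were lowest of the 12 mice. Of the pericyte genes, Rgs5 was at 35.5 CPM in this mouse, near the low end of 31.9 to 67.9 CPM in the others, and Pdgfrb at 27.4 CPM, within the 23.1 to 31.0 CPM of the others.

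Of 9 genes listed for venous or activated endothelium, 7 had their highest levels in STAT3 KO 6 and control 13, and the exceptions were Vcam1 and Nr2f2. Of the 6 genes of this list with enough counts to be tested it was 4, against 1.54% of all genes tested. Both mice were picked after these values were seen, so the share of all genes is a description and no test of the pair. Lcn2, Selp and Sele had too few counts outside these mice to be tested. The counts are of the whole piece, so the cells that made these RNAs were not determined. Lcn2, which encodes the acute phase protein lipocalin 2, was at 14.1 CPM (396 counts) in STAT3 KO 6 and at 6.19 CPM (151 counts) in control 13, against 0.0381 to 0.242 CPM (1 to 7 counts) in the other 10 mice. The adhesion molecule genes Selp and Sele had 28 and 10 counts in STAT3 KO 6, 2 and 3 in control 13, and at most 1 count elsewhere. Icam1 was at 5.47 CPM in STAT3 KO 6 and at 3.53 CPM in control 13, against 1.45 to 3.31 CPM in the others, and Tmem252 at 3.04 and 1.89 CPM against 0.352 to 1.08 CPM. Vcam1 was at 33.6 CPM in STAT3 KO 6 and 39.2 CPM in control 13, with 23.8 to 36.6 CPM elsewhere, and Nr2f2 at 33.6 and 32.6 CPM with 17.0 to 37.9 CPM elsewhere. Ackr1 was at 46.9 and 42.5 CPM against 29.1 to 41.4 CPM, and Slc38a5 at 6.502 and 9.72 CPM against 1.62 to 6.14 CPM. Of the lists chosen after these values were seen, Ch25h, an enzyme gene induced in inflammation, had 66 counts in STAT3 KO 6, 21 in control 13 and 2 to 17 elsewhere, and Il1r1, the interleukin 1 receptor gene, was at 14.8 and 11.4 CPM against 6.11 to 8.64 CPM. Cd14 was at 3.86 and 2.79 CPM against 1.25 to 2.45 CPM, and Steap4 had 21 and 9 counts against 0 to 9.

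Red cell genes were high in STAT3 KO 6 but not in control 13. Alas2, an enzyme gene of haem synthesis in red cell precursors, was at 19.1 CPM in STAT3 KO 6, 3.57 CPM in control 13 and 1.84 to 4.94 CPM elsewhere, and Slc4a1, the red cell anion exchanger gene, had 33 counts in STAT3 KO 6 against 7 or fewer in all other mice. The 4 haemoglobin genes of the list are listed at 0 in every library. The neutrophil genes S100a8 and S100a9 had 50 and 82 counts in STAT3 KO 6, 14 each in control 13 and at most 10 and 15 elsewhere, while Ngp had 5 counts and Camp had 0 in STAT3 KO 6. The platelet gene Itga2b was at 3.32 CPM in STAT3 KO 6, within the 2.87 to 4.54 CPM of the other mice. Gp9, Gp1bb and Itgb3 were within the range of the other mice as well, while Ppbp had 14 counts against at most 6. The part of blood in the vascular values of this mouse was not tested.

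**Figure D5:**
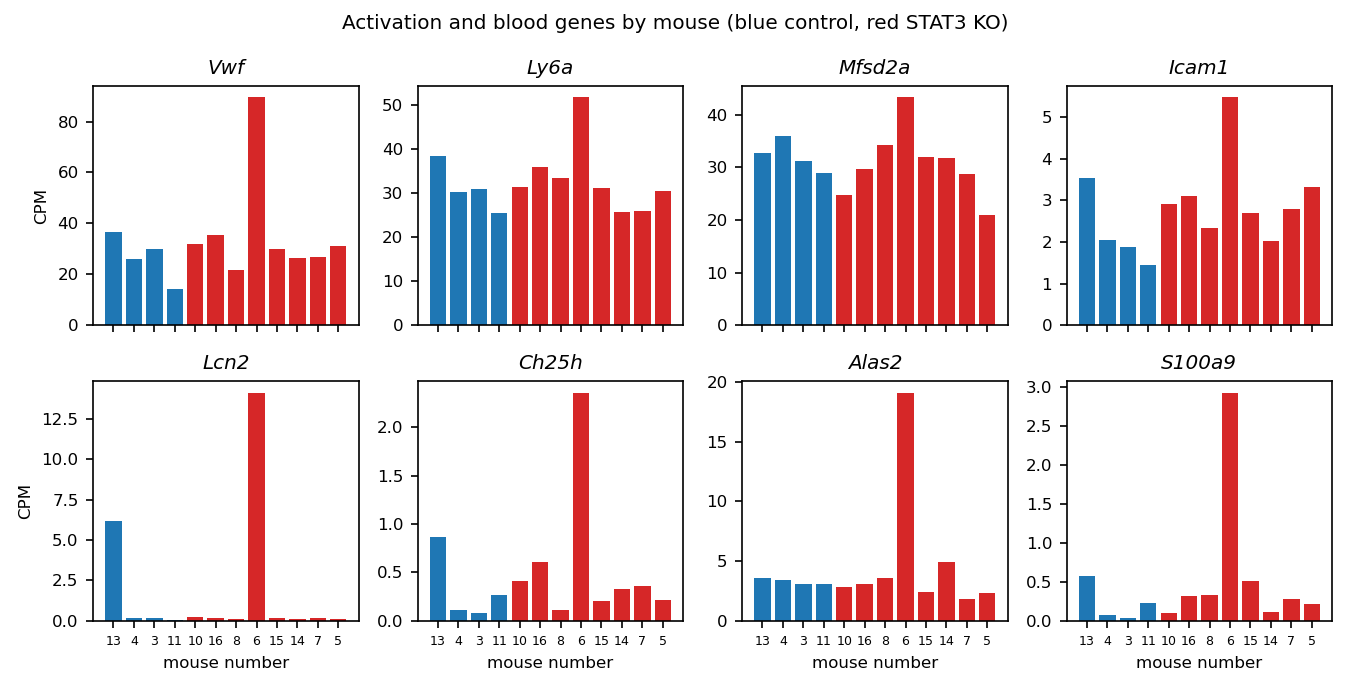
CPM of the endothelial genes Vwf, Ly6a and Mfsd2a, of the activation genes Icam1, Lcn2 and Ch25h, of the red cell gene Alas2 and of the neutrophil gene S100a9 in each of the 12 mice, by mouse number, with controls in blue and STAT3 KO mice in red; each bar is 1 mouse and starts at 0. STAT3 KO 6 is highest in all panels, and control 13 is the only other mouse with Lcn2 above 0.242 CPM.

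With both of these mice left out, a choice made after seeing the data, 0 vascular genes passed the test of genotype and 1 had an unadjusted p below 0.05. Without STAT3 KO 8 and 16, the mice with choroid plexus genes, these counts were 0 and 3, and without control 3 and STAT3 KO 10 and 16 they were 0 and 1.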

How the data were processed

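RNA of the DR was sequenced with 1 library per mouse and no pooling. Per the labels and the study's methods, the authors prepared libraries with the NEBNext Ultra II RNA kit and mapped reads to mm10 with STAR 2.5.0b (submitters' processing notes, which also name bcl2fastq and DESeq2 1.6.3). The deposited values are raw counts per gene symbol, without normalisation. The read counter, the annotation and the use of strand are not given in the sources used here. Lines for reads that fell on no feature or were ambiguous were left out, which left 84.2% to 86.1% of the listed reads. Groups, sexes and mouse numbers were taken from the labels. Each library is 1 mouse. The labels give no batch.

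The 42 genes and all lists were chosen with earlier results of these data known. CPM used all counts on genes, and log2 CPM a prior count of 2. Differences were tested two-sided by quasi-likelihood F-tests in edgeR with TMM normalisation after filterByExpr (10 counts per library, 15 in total), fitted for genotype, for sex and for genotype, sex and their interaction. Adjustment followed Benjamini and Hochberg over all genes, with a threshold of 0.05. Single genes were also compared by a two-sided exact permutation test over the 495 ways to divide the mice into groups of 4 and 8, with a smallest possible p of 0.00202. The 11 pairs of genes were tested by Pearson's r and Spearman's rho with two-sided permutation tests of 100000 resamples, adjusted over the 11 pairs. Exon lengths and overlaps came from GENCODE vM21 (GRCm38), and promoters from RefSeq (GRCm38.p6). Depth was 24379588 to 29645210 counts per library.

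Named genes were those with an adjusted p below 0.05, up to 10 with an unadjusted p below 0.05, Cldn5, Pecam1, Slc2a1, Pdgfrb, Rgs5, Acta2 and Tagln, the 3 with the largest and the 3 with the smallest SD, the 3 with the smallest p for sex and for the interaction, up to 5 per pathway list with an unadjusted p below 0.05, and the 5 genes nearest to each group mean. Genes named beside STAT3 KO 6, and those outside the common profile, were chosen after their values were seen. A further marker gene and further promoter stretches are not reported here.

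Other settings tried were RLE factors, other filters, sex as a covariate, limma-voom with quality weights for samples, the likelihood ratio test of edgeR, DESeq2, a prior count of 0.5, TMM factors in CPM, and each mouse left out in turn, for the interaction as an alternative added after seeing the data. Software comprised DESeq2 1.42.0, edgeR 4.0.16 and limma 3.58.1 under R 4.3.3, then scipy 1.17.1, numpy 2.4.6, matplotlib 3.10.9 and pandas 2.3.3 under Python 3.11.15. The count test and the permutation tests were tested on simulated data.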

Additional observations from a re-analysis of the deposited data

Results flagged for a closer look

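Within the controls and within the STAT3 KO mice, the highest and lowest values of the 42 vascular genes and of the 3 group means were checked for a gap to the nearest other mouse that is wide for the range of the group (Dixon's test at the 95% level). This gave 7 values in 90 sets, where chance gives about 4.5. Vwf was at 89.5 CPM in STAT3 KO 6, with 21.7 to 35.4 CPM in the other STAT3 KO mice. Slc7a5 was low in STAT3 KO 8 at 56.5 CPM, with 70.2 to 79.8 CPM in the others of its group, and Slco1c1 was high in the same mouse at 68.3 CPM, with 53.3 to 59.0 CPM in the others. Control 11 was low for Pecam1 at 23.2 CPM (27.9 to 28.8 CPM in the other controls), for Flt1 at 52.3 CPM (70.8 to 74.7 CPM) and for Abcb1a at 47.4 CPM (53.4 to 53.8 CPM). Control 4 was low for Slc16a1 at 62.0 CPM (73.2 to 74.8 CPM in the other controls). STAT3 KO 8 is a mouse with raised choroid plexus genes (261 CPM summed, beside 256 CPM in STAT3 KO 16) and control 4 the mouse with raised forebrain genes, and the part of that RNA in these values was not tested.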

How the results depend on the processing

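For genotype, 0 of the tested vascular genes passed under all 22 alternatives, among them RLE factors, limma-voom, DESeq2, edgeR's likelihood ratio test, other filters, sex as a covariate and each mouse left out, although a filter of 10 counts in every library left Cnn1 out. The number with an unadjusted p below 0.05, 3 with all mice, was 1 to 6 with 1 mouse left out (1 without control 13 or control 4, 6 without STAT3 KO 8), 1 without control 13 and STAT3 KO 6, and 1 without control 3 and STAT3 KO 10 and 16, a set left out after seeing the data. Over all genes DESeq2 called 6, the likelihood ratio test 3, and edgeR 1 without control 4. Sex and interaction gave 0 called vascular genes in every alternative run. For the interaction, leaving out each mouse was added after seeing the data. Of 395 alternative fold changes of 18 named genes 367 kept their sign. The other 28 changed sign. Cldn5 became -0.051 with limma-voom, -0.068 without control 13 and STAT3 KO 6, -0.0053 without STAT3 KO 8 and 16, and -0.046 to 0.149 with 1 mouse left out. Bsg became -0.0041 with limma-voom, -0.019 without control 13 and STAT3 KO 6, and -0.020 to 0.049 with 1 mouse left out. Pdgfrb became 0.021 without control 13 and STAT3 KO 6 and 0.021 without STAT3 KO 8 and 16, and was -0.059 to 0.028 with 1 mouse left out. Pecam1, Tagln and Cdh5 were at -0.090 to 0.016, -0.16 to 0.058 and -0.11 to 0.00067 with 1 mouse left out. Without control 3 and STAT3 KO 10 and 16 they were at 0.058, 0.159 and 0.0086, Acta2 at 0.052 and Myh11 at 0.091. The median over the endothelial genes, -0.04 with all mice, was -0.08 to 0.0022 with 1 mouse left out above 0 only without control 13, and 0.0045 without control 3 and STAT3 KO 10 and 16. Of the 11 gene pairs, 5 passed with all mice, 4 with TMM factors or after removal of genotype and sex, and 3 to 7 with 1 mouse left out. No paired analysis was possible because controls and STAT3 KO mice share no replicate number. The depth left Cnn1 near counting noise, and with 4 controls a change of about 0.21 on the log2 scale in a typical vascular gene lay within its interval.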
